A study of Oncorhynchus mykiss with 525 samples.

Results

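The wells described here held RTgill-W1 cells exposed for 24 h to the chemical coded clp at the concentrations labelled 20.22 (conc 2) and 6.74 (conc 3), with no unit, which are the 2 next below its highest. They were chosen by their labels: 3 wells at each concentration, 6 of the 501 wells with counts in the series. The controls were the 15 wells with DMSO, the solvent, on the same 3 plates, and each plate held 1 cell passage. Each concentration of clp had 1 well per plate, while the solvent wells of a plate entered the tests as separate wells. The highest concentration (conc 1, labelled 60.65) gave too few counts for a test and is described only for its loss of counts. The other 15 clp wells, at the 5 lower labelled concentrations of 2.25, 0.75, 0.25, 0.08 and 0.03 (conc 4 to conc 8), enter as a second control. Per the design text, the purpose was to find at which concentration of a chemical the transcriptome first responds, with pesticides in 8 steps of 3-fold dilution. The labels do not say whether clp was dissolved in DMSO or in water, nor what the code stands for.

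RTgill-W1 is an epithelial line from the gill of rainbow trout (Oncorhynchus mykiss). In the fish the gill exchanges gases and ions with the water, and dissolved chemicals reach its epithelium directly, so the line is used in tests of acute toxicity that would otherwise need live fish. A well's RNA falls when cells are lost and when each cell holds less RNA, and the total count of a well cannot tell fewer cells from less RNA per cell. The counts are given per Ensembl gene ID. None of the 44260 IDs could be paired with a gene name here, so genes are given by ID with no function, and the markers of the cell line were not checked.

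Counts were nearly absent at conc 1. The 3 conc 1 wells held 22101, 5856 and 2703 counts on plates 1, 2 and 3, which was 10.2%, 1.41% and 0.815% of the median of the other wells in their library, where a library is the pool of wells sequenced together. All 3 lay below the minimum total of 24094.8 (10% of the median well of the series), and the 15 solvent wells lay between 158258 and 506267. The chemicals diq and per, pooled in the same libraries, held 78.3% to 139% of their library's median at their own conc 1. One step lower, clp wells were back at the depth of their library: conc 2 held 233437, 436937 and 351193 counts, or 113%, 122% and 111% of the library median. Against the median solvent well of their plate these were 69.4%, 126% and 119%. The conc 3 wells were shallower again, with 108430, 202563 and 167657 counts, or 50.2%, 48.8% and 50.6% of the library median. Against the solvent wells they held 32.2%, 58.5% and 57.0%. Below conc 1 the totals did not follow the concentration: conc 4 held 144% to 173% of the library median and conc 5 held 60.1% to 71.9%. At conc 3 diq held 65.4% to 86.6% and per 78.9% to 95.3%. Concentration coincides with the row of the plate for every chemical, so the 2 cannot be told apart in these totals or in the gene comparisons below.

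**Figure D1:**
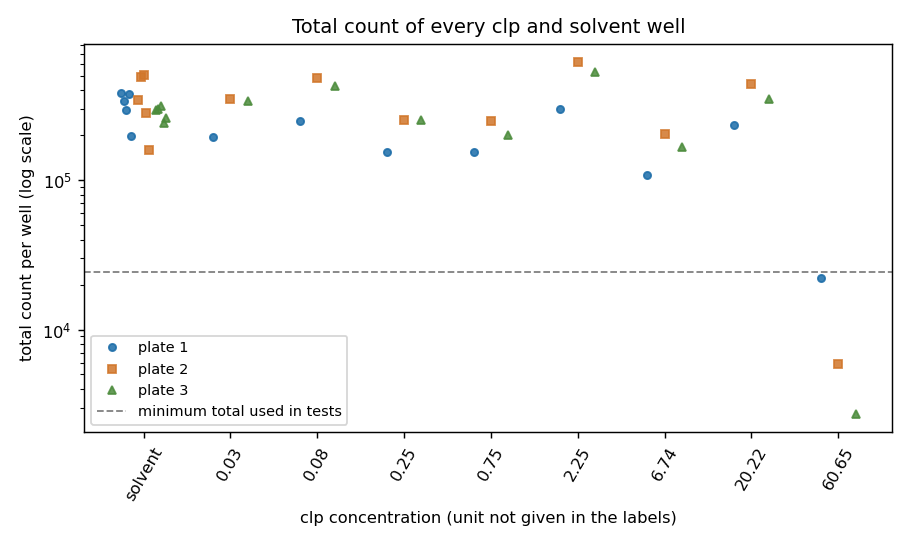
Total count of every clp and solvent well (vertical axis, log scale) by labelled clp concentration, with 1 point per well and plates 1, 2 and 3 as circles, squares and triangles. The 3 wells at 60.65 lie at 2703 to 22101, below the dashed minimum of 24094.8, while the wells at 20.22 lie at 233437 to 436937 and those at 6.74 at 108430 to 202563.

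The conc 1 wells were also set beside solvent wells reduced to the same total. Replicate 1 had a count for 5690 genes, where its plate's solvent wells would give 4258 to 4651 at that depth. Replicate 2 had 1534 against 1220 to 1504, and replicate 3 had 889 against 896 to 958. The 4 most counted IDs held 39.1%, 47.7% and 43.9% of the counts, against 43.9% to 48.0%, 51.0% to 59.5% and 41.6% to 45.3% in the solvent wells of plates 1, 2 and 3. Replicates 1 and 2 thus spread their counts over more genes than their solvent wells, and replicate 3 over slightly fewer. The lower share of these 4 IDs was not particular to conc 1. The other clp wells of plate 1 held 37.7% (conc 3) to 43.3% (conc 4), all below the solvent wells. Those of plate 2 held 46.5% (conc 7) to 53.2% (conc 4), with only conc 3 and conc 4 inside the solvent range. On plate 3 it was 44.4% (conc 3) to 52.1% (conc 4), inside the solvent range at conc 3 and above it otherwise.

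At conc 2, 41 of 4077 tested genes differed from solvent (1.01%), and 34 of them rose (0.834%) while 7 fell (0.172%). The called genes changed by a median of 1.13 on the log2 scale in either direction, and 31 changed at least 2-fold. At conc 3, 28 genes differed (0.687%), of which 23 rose (0.564%) and 5 fell (0.123%). Their median change was 1.48 and 24 changed at least 2-fold. Rises outnumbered falls at both concentrations in this fit, while the median over all tested genes was 0.01 at conc 2 and -0.03 at conc 3. The filter on low counts needs only as many wells as the smallest group holds. A gene that is low elsewhere can therefore enter through a group where it is high. Among the IDs named below, ENSOMYG00000021322 entered only through its conc 2 wells and ENSOMYG00000000484 only through its conc 3 wells. How many of the other rises entered in this way was not counted. The split turned at conc 3 with no filter on low counts (11 rises and 26 falls) and at conc 2 with wells thinned to equal totals (1 rise and 2 falls). The test was edgeR's quasi-likelihood test with the plate as a block and a Benjamini-Hochberg adjusted p below 0.05. Without the block 10 genes passed at conc 2 and 3 at conc 3. Without the clp wells of plate 1, 10 and 9 passed, without those of plate 3 it was 21 at conc 2, and without those of plate 2 it was 18 at conc 3.

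With the plate as block, the lower concentrations gave fewer calls each. Against the same solvent wells, 5 genes passed at conc 4 (0.123%), 13 at conc 5 (0.319%), 7 at conc 6 (0.172%), 7 at conc 7 (0.172%) and 4 at conc 8 (0.0981%). Without the block these were 0, 6, 1, 3 and 0, beside 10 at conc 2 and 3 at conc 3, so conc 3 then had no more calls than conc 5 or conc 7. No tested gene followed a slope over conc 2 to conc 8 by edgeR (0 of 2950 tested, 191 at an unadjusted p below 0.05). Of the IDs named below, ENSOMYG00000021322 and ENSOMYG00000009711 were not among those tested for a slope.

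ENSOMYG00000021322 showed the largest rise at conc 2. It had 39, 15 and 35 counts there, or 177, 40.4 and 110 CPM on plates 1, 2 and 3. CPM is here the count relative to the well's counts over the tested genes, scaled between wells by TMM. The solvent wells had a lowest value of 0, a median of 8.96 and a highest of 35.4 CPM, so all 3 treated wells lay above all 15. The log2 fold change was 2.83 (SE 0.40, adjusted p = 4.08e-06). Without its conc 2 wells the ID would not have passed the filter on low counts, so its separation from solvent was partly selected for. At conc 3 the same ID stood at 26.2, 11.9 and 18.5 CPM, inside the solvent range, a change of 0.40 (SE 0.69, adjusted p = 0.885). The difference between both concentrations was 2.43 (SE 0.67) and did not pass (adjusted p = 0.137).

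ENSOMYG00000021213 had 25, 21 and 37 counts at conc 2, or 113, 56.6 and 116 CPM. The solvent wells ranged from 3.46 over a median of 19.4 to 45.7 CPM, again with no overlap. It rose by 2.04 (SE 0.36, adjusted p = 2.75e-04). At conc 3 the wells spread from 5.97 to 74.1 CPM, and 1 of the 3, that of plate 3, lay above the solvent wells. Its change there was 0.67 (SE 0.53, adjusted p = 0.664).

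The largest falls at conc 2 rested on very few counts. ENSOMYG00000009711 had 3, 1 and 1 counts, or 13.6, 2.70 and 3.14 CPM, against a solvent median of 31.1 and a range of 10.7 to 72.3 CPM. It fell by 2.41 on the log2 scale (SE 0.61, adjusted p = 0.0246), and the plate 1 well overlapped the solvent wells. ENSOMYG00000007587 had 5, 3 and 1 counts, or 22.6, 8.09 and 3.14 CPM, all below the solvent range of 27.8 to 65.2 CPM. It fell by 1.97 (SE 0.48, adjusted p = 0.0195). Neither passed against the lower clp concentrations (adjusted p = 0.240 for both) or without the block.

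At conc 3, ENSOMYG00000000484 rose most. It had 14, 12 and 16 counts, or 122, 71.7 and 98.7 CPM, and the solvent wells ran from 0 over a median of 7.24 to 35.6 CPM, with no overlap. The log2 fold change was 3.07 (SE 0.57, adjusted p = 4.82e-04). Without its conc 3 wells this ID would not have passed the filter on low counts, so its separation from solvent was partly selected for. The call was lost without the block (adjusted p = 0.0665) and without the clp wells of plate 3 (0.0867). At conc 2 the same ID stood at 45.3, 5.39 and 0 CPM on plates 1, 2 and 3, a change of 0.05 (SE 0.79, adjusted p = 0.992). The difference between both concentrations was -3.02 (SE 0.82, adjusted p = 0.135).

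ENSOMYG00000002780 had 22, 11 and 15 counts at conc 3, or 192, 65.7 and 92.6 CPM. The solvent wells ran from 0 over a median of 14.5 to 46.2 CPM and did not overlap with them. It rose by 2.69 (SE 0.43, adjusted p = 2.69e-05), and the call was lost without the clp wells of plate 1 (adjusted p = 0.0548). At conc 2 it stood at 58.9, 16.2 and 22.0 CPM, a change of 0.79 (SE 0.48, adjusted p = 0.662). At the lowest concentration, conc 8, it stood at 57.9, 35.1 and 40.7 CPM, a larger change of 1.40 (SE 0.45, adjusted p = 0.295). The single fall that met the rule for naming at conc 3, ENSOMYG00000009202, had 5, 15 and 11 counts, or 43.7, 89.6 and 67.9 CPM, just below the solvent range of 90.5 to 249 CPM. It fell by 1.14 (SE 0.28, adjusted p = 0.0223), and at conc 2 it lay at 131 to 202 CPM, inside the solvent range. This call was lost without the block (adjusted p = 0.265), with the lower clp wells (0.0676) or the diq and per wells (0.0958) as control, in thinned wells (0.998), and without the clp wells of plate 1, 2 or 3 (0.177, 0.104 and 0.147).

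**Figure D2:**
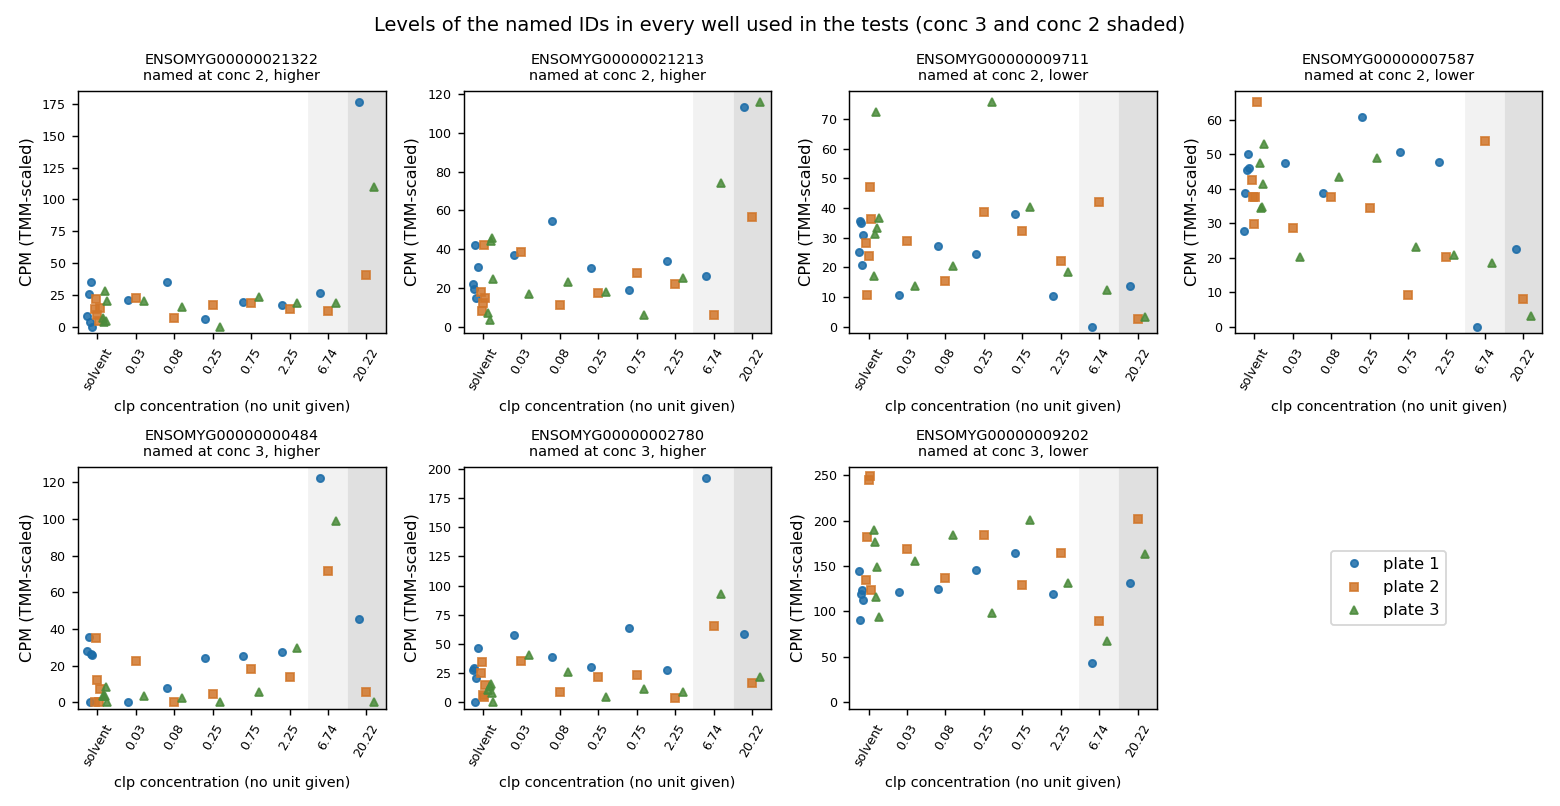
Level of the 7 named IDs in CPM (vertical axis, scaled by TMM) in the solvent wells and at each labelled clp concentration, with 1 point per well, plates as symbols, and 6.74 (conc 3) and 20.22 (conc 2) shaded. Both IDs named as higher at conc 2 stood above all solvent wells there, and both named as higher at conc 3 stood above all solvent wells there.

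The genes of each concentration were also read at the other one. Both comparisons use the same solvent wells, and their values are therefore given side by side only. Of the 34 genes that rose at conc 2, the median log2 fold change was 1.12 at conc 2 and 0.79 at conc 3. Of the 7 that fell at conc 2 it was -1.50 and -0.29. The 23 that rose at conc 3 had a median of 1.54 at conc 3 and 0.98 at conc 2, and the 5 that fell had -0.82 at conc 3 and 0.14 at conc 2.

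In the contrast of conc 2 with conc 3, which lie in the same libraries, 6 genes differed (0.147% of 4077). The contrast comes from the same model, so the solvent wells still enter its gene filter, plate terms and estimate of the spread. They are named here after their values were seen. ENSOMYG00000013760 changed by 0.83 at conc 2 and by -0.18 at conc 3, a difference of 1.01 (SE 0.21, adjusted p = 0.0112). ENSOMYG00000040385 gave 0.98 and -0.15, a difference of 1.14 (SE 0.26, adjusted p = 0.0371). It was also higher at conc 4 to 8 against solvent (0.52, adjusted p = 5.44e-03). From these wells conc 2 differed by 0.47 (adjusted p = 0.547) and conc 3 by -0.67 (adjusted p = 0.348). For ENSOMYG00000003620 and ENSOMYG00000010683 the higher value at conc 2 came with a fall at conc 3, of -0.97 and -0.82 against solvent. ENSOMYG00000018375 stood at the solvent level at conc 2 (0.00) and rose by 1.22 at conc 3, a difference of -1.22 (SE 0.26, adjusted p = 0.0129). ENSOMYG00000031628 fell at conc 2 (-1.50) and stood at 0.53 at conc 3 (adjusted p = 0.462), a difference of -2.03 (SE 0.41, adjusted p = 0.0112). It also fell at conc 4 to 8 against solvent (-1.07, adjusted p = 9.62e-05), from which conc 2 differed by -0.43 (adjusted p = 0.946) and conc 3 by 1.60 (adjusted p = 1.25e-03). Leaving out the clp wells of 1 plate gave 1 call without plate 1, 0 without plate 2 and 3 without plate 3 (edgeR, 269 genes at an unadjusted p below 0.05 with all plates).

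All clp wells of a plate were pooled in 1 library (15, 19 and 23) and the solvent wells in another (14, 18 and 22), so clp against solvent is also library against library. The lower clp concentrations share the library of conc 2 and conc 3 and give a control within it. They lie in other plate rows than conc 2 and conc 3, so row and concentration cannot be told apart there either. Pooled, conc 4 to conc 8 differed from solvent in 35 genes (0.858%), 21 higher (0.515%) and 14 lower (0.343%). The solvent wells are the same in these comparisons too. For the genes that rose at conc 2, the median was 1.12 against solvent, 0.49 for conc 4 to 8 against solvent and 0.64 for conc 2 against conc 4 to 8. For those that rose at conc 3 it was 1.54, 0.60 and 0.92.

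Against the lower concentrations, 9 genes were called at conc 2 (0.221%), 8 higher (0.196%) and 1 lower (0.0245%). At conc 3 it was also 9 (0.221%), again 8 higher (0.196%) and 1 lower (0.0245%). The clp wells are the same as in the test against solvent, and only the control differs. Of the 41 genes, 32 had an unadjusted p below 0.05 and 8 were called, and of the 28 genes 25 and 8. Over all 4077 tested genes, 237 had such a p at conc 2 and 333 at conc 3 (edgeR). The lists were chosen with these same clp wells, so their higher share was favoured in advance. ENSOMYG00000021322 was 2.62 higher at conc 2 than at conc 4 to 8 (SE 0.40, adjusted p = 2.18e-05) and ENSOMYG00000021213 1.90 higher (SE 0.37, adjusted p = 2.23e-03). At conc 3, ENSOMYG00000000484 was 3.32 higher (SE 0.59, adjusted p = 7.31e-04) and ENSOMYG00000002780 2.23 higher (SE 0.42, adjusted p = 1.25e-03). Against solvent these 4 rises were 2.83, 2.04, 3.07 and 2.69. They were picked as the largest rises in the same clp wells, and do not stand for their lists. Over all risen genes the median was 1.12 against solvent and 0.64 inside the library at conc 2, and 1.54 and 0.92 at conc 3.

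**Figure D3:**
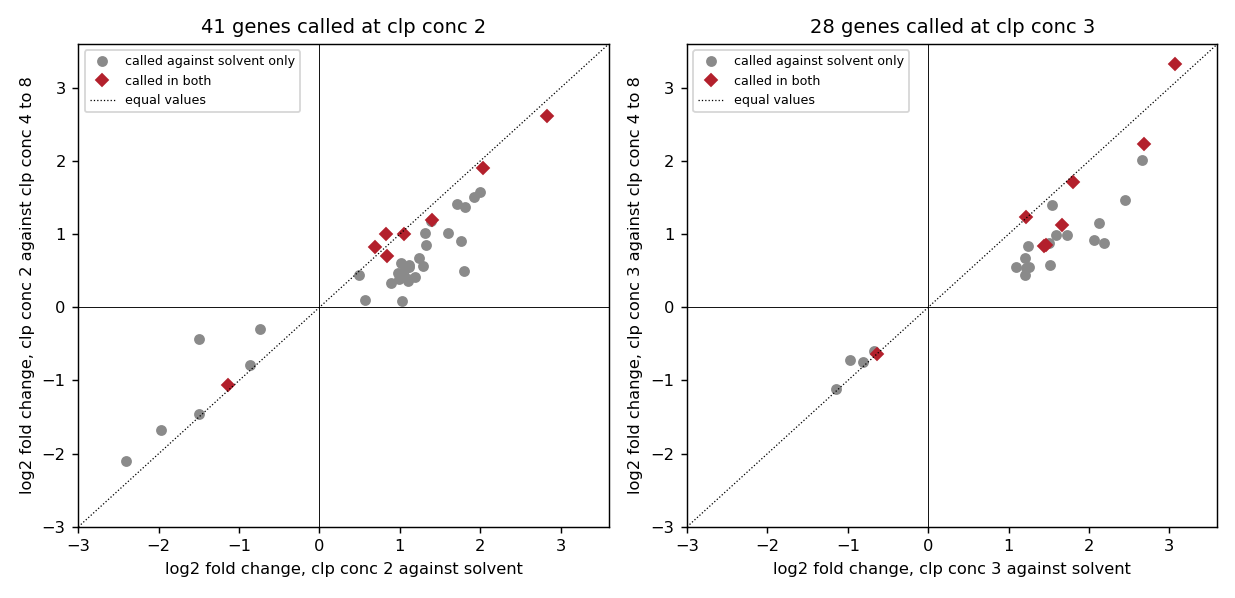
Log2 fold change against solvent (horizontal axis) and against clp conc 4 to 8 of the same libraries (vertical axis) for the 41 genes called at conc 2 and the 28 called at conc 3, with 1 point per gene. Diamonds are the 8 genes of each panel called against both controls, and most of the other rises lie below the dotted line of equal values.

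A further control, added after the data were seen, was the 30 wells of diq and per at their own conc 4 to conc 8, which share the same 3 libraries. Like the lower clp wells, they lie in other plate rows than clp conc 2 and conc 3. The diq and per wells at their own conc 2 and conc 3 were not used as a control. These wells differed from the solvent wells in 7 of 4814 genes (0.145%), and the genes that rose at clp conc 2 and conc 3 had medians of 0.40 and 0.49 in them. Against this control 5 genes were called at conc 2 (0.104% of 4814), all of them among the 41. They all rose against each of the 3 controls: ENSOMYG00000021322, ENSOMYG00000021213, ENSOMYG00000002207 (1.40 against solvent, 1.19 against lower clp and 1.07 against diq and per), ENSOMYG00000013760 (0.83, 1.00 and 1.00) and ENSOMYG00000046440 (0.70, 0.82 and 0.89). At conc 3, 10 genes were called (0.208%), of which 7 were among the 28, and the same 7 were called against the lower clp wells. They were 6 rises, with ENSOMYG00000000484 and ENSOMYG00000002780 among them, and 1 fall, ENSOMYG00000021304 (-0.64, -0.63 and -0.66). The clp wells are the same in all 3 comparisons, so calls shared between the controls were favoured in advance.

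The wells of each group were also compared by rank, with no model. At conc 2, 11 of the 34 risen genes had all 3 wells above all 15 solvent wells, and 1 of the 7 fallen genes had all below. Over all 4077 genes 19 lay wholly above (0.466%) and 7 wholly below (0.172%). At conc 3 it was 5 of 23 above and 1 of 5 below, beside 19 (0.466%) and 11 (0.270%) over all genes. Each clp well stood on the side of the group's call: the 34 risen genes were above their plate's solvent mean in 34, 34 and 34 cases, with medians of 1.38, 0.96 and 1.27 on the log2 scale on plates 1, 2 and 3. These are the wells the calls were made from. At conc 3, against the same solvent wells, the 34 genes had medians of 0.78, 0.37 and 0.88, and the 15 wells of conc 4 to 8 had 0.04 to 0.78.

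The sum over the risen genes shows each well directly, in CPM of the well's unscaled total. Each list was chosen in the solvent wells and the wells of its own concentration, so higher sums in the latter were favoured in advance. The 34 genes that rose at conc 2 summed to 9107, 4078 and 5347 at conc 2 and to 8697, 3085 and 4843 at conc 3, against 1685 to 4809 in the solvent wells. At conc 4 to conc 8 they summed to 5213 to 7038 on plate 1, above all solvent wells. On plates 2 and 3 it was 2663 to 3671. Plate 1 was high in every group, clp and solvent alike. In the conc 1 wells, which were used for no call, these genes summed to 19547, 6660 and 7769 (exact 95% binomial intervals 17762 to 21459, 4740 to 9093 and 4815 to 11852). The 23 genes that rose at conc 3 summed to 7415, 2073 and 3334 at conc 3, 486 to 2918 in the solvent wells, and 17918, 5294 and 7029 at conc 1. At conc 4 to conc 8 they summed to 3010 to 5248 on plate 1, above all solvent wells, and to 964 to 1854 on plates 2 and 3. The sums at conc 1 rest on 432, 39 and 21 counts for the first list and on 396, 31 and 19 for the second, and the intervals cover counting error only.

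The 5 genes called at conc 2 against all 3 controls had too few counts at conc 1 to be placed. These genes and the 6 of conc 3 below were chosen as higher in the clp wells of their concentration than in solvent. Their higher sums in those clp wells were thus set in advance. The 5 genes summed to 1345, 948 and 1105 at conc 2, 395 to 655 at conc 3 and 413 to 708 in the solvent wells. At conc 1 they summed to 905, 683 and 370, on 20, 4 and 1 counts. The intervals at conc 1 were 553 to 1397, 186 to 1748 and 9.37 to 2060, which cover solvent levels on every plate and also the conc 2 level of the same plate. The 6 that rose at conc 3 against all 3 controls summed to 2490, 716 and 1366 at conc 3 and 199 to 961 in the solvent wells, and 5249, 854 and 1480 at conc 1, on 116, 5 and 4 counts. The interval of plate 1 (4339 to 6292) lay above all solvent wells, and those of plates 2 and 3 (277 to 1991 and 403 to 3785) overlapped the range of the 15 solvent wells. Beside the solvent wells of the same plate, that of plate 2 overlapped them (199 to 411) and that of plate 3 began just above them (331 to 401). ENSOMYG00000021322, ENSOMYG00000000484 and ENSOMYG00000002780 each had 4 counts in the conc 1 well of plate 1, or 181 CPM of its unscaled total (interval 49.3 to 463). The other named IDs had no count in that well, where 3 counts would be 136 CPM.

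**Figure D4:**
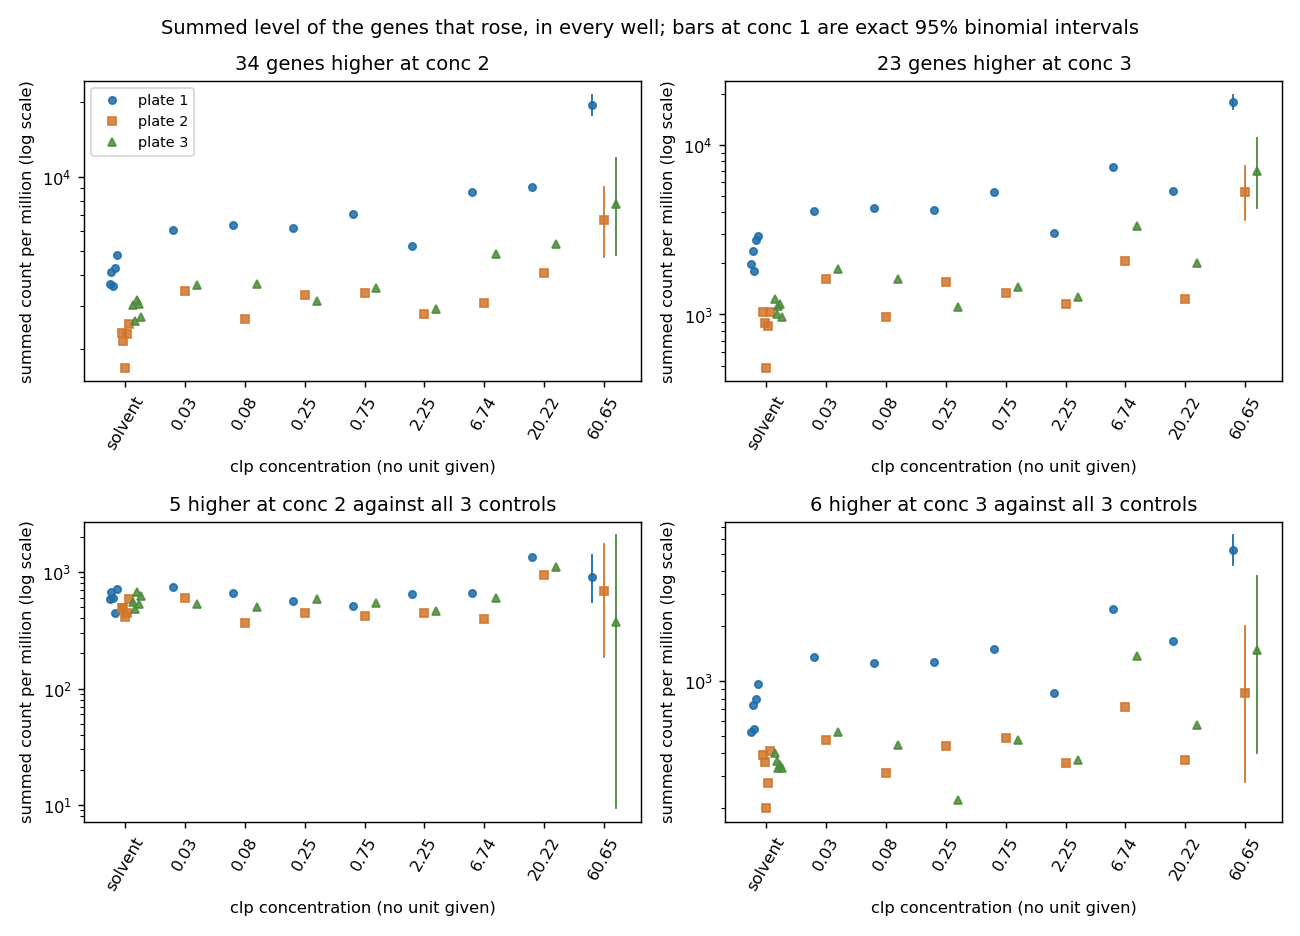
Summed level of the risen genes (vertical axis, CPM of the well's total, log scale) by labelled clp concentration for the 34 genes of conc 2, the 23 of conc 3, and the 5 and 6 of these called against all 3 controls. Each point is a well, symbols are plates, and bars at 60.65 are exact 95% binomial intervals; in the upper panels the wells at 60.65 reach 19547 and 17918 CPM.

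The relation of these sums to depth was read in the solvent wells. In the 15 solvent wells, centred on their plate, the sum of the 34 genes was lower where the total count was higher, which did not pass after adjustment (Pearson's r = -0.648, permutation p = 0.0434, adjusted over 2 relations 0.0869, Spearman's rho = -0.55, permutation p = 0.0593, adjusted 0.119). Without the 2 wells farthest in total, r was -0.426. For the 23 genes of conc 3, r was -0.518 (permutation p = 0.173, adjusted 0.173) and rho was -0.439 (permutation p = 0.159, adjusted 0.159), and r was -0.326 without the 2 farthest. The conc 3 wells had a total near 50% of their library's median and the conc 2 wells were above 111%. The part of depth in the conc 3 calls and in the sums at conc 1 was not tested beyond thinning all wells to 108430 counts, which left 1720 genes tested, with 3 calls at conc 2 and 4 at conc 3. Of these, 1 of the 3 was among the 41 genes of conc 2 and 4 of the 4 were among the 28 of conc 3.

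The same genes were read in batch 1, whose 8 chemicals compared here have their own solvent wells, plates and libraries. Each was taken at its highest concentration with enough counts. The chemical col, with 2 wells, called 23 of the 36 tested genes of conc 2, 16 in the same direction, and 18 of 27 genes of conc 3, 16 in the same direction. It called 27.6% of all its 3001 tested genes. The genes that rose at clp conc 2 and conc 3 had medians of 1.50 and 1.89 in col, beside -0.43 over all its genes. The chemical met called 30.1% of all its genes but 8 of 38 and 3 of 27 of these, with medians of 0.37 and 0.34 beside -0.31. Of the other 6, cln called 0.521% of its genes and 4 of the 36 tested genes of conc 2, and thx 0.558% and 2 of 40. The chemicals gly (0.501%) and imz (0.146%) called 1 each, and ata (0.147%) and cat (0.121%) called 0. ENSOMYG00000021322 rose in col by 2.06 (SE 0.77, adjusted p = 0.0354), and ENSOMYG00000021213 stood at 1.30 (SE 0.97, adjusted p = 0.323). Besides col, ENSOMYG00000021322 was tested only in met and thx, where it did not pass. The filter on low counts removed it for the other chemicals, so its rise in col may be partly selected for, which was not checked. ENSOMYG00000002780 rose in col by 2.69 (SE 0.67, adjusted p = 1.33e-03), the same size as at clp conc 3. ENSOMYG00000009202 fell by 2.50 in col (SE 0.80, adjusted p = 0.0141), and ENSOMYG00000000484 did not pass in any of the 8.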

How the data were processed

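Per the labels' protocols, each well's RNA was tagged with a QIAseq UPXome kit, and 24 wells were pooled per library. The authors deposited whole-number counts, 1 per Ensembl ID and well. For the aligner, counter, annotation and molecular identifiers, the entry is: not given in the sources used here. The counts were used as deposited. Totals in the series ran from 1809 to 786151 with a median of 240948, and 14 wells under 10% of that median were left out, the 3 clp conc 1 wells among them.

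One edgeR 4.0.16 model (R 4.3.3, TMM scaling, filterByExpr, quasi-likelihood test, two-sided, Benjamini-Hochberg) held 36 wells, namely clp conc 2 to 8 and the 15 solvent wells, with plate as block. CPM are TMM-scaled. Per-well log2 values have a pseudocount of 2 CPM. Sums were computed with pandas 2.3.3 under Python 3.11.15, and plots drawn with matplotlib 3.10.9. The scripts were tested on simulated data with no plate or library difference, which cannot test the plate block or the library against library comparison. The wells and lists were chosen with earlier results of these data known. Per the design text each replicate was a separate passage, so the 5 solvent wells of a plate share 1. Wells of the same plate deviated together (median correlations 0.222, 0.126 and 0.0756 on plates 1, 2 and 3, against -0.0667 between plates, over 1568 genes). For pairs of a clp and a solvent well, which share no library, the medians were 0.170, 0.0882 and 0.0675, against -0.0508 between plates. No 2 wells of a group agreed within sampling noise (lowest chi-square per degree of freedom 1.82 in 126 pairs).

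Named IDs were the largest 2 rises and 2 falls per concentration among called genes with at least 2-fold change, every well on 1 side of its plate's solvent mean and mean log2 CPM of 1 or more. These conditions held for 26 rises and 5 falls at conc 2 and for 23 rises and 1 fall at conc 3. Planned lists of named genes were not run, since no ID matched a name. No named ID had a near-identical count profile: the closest other ID differed by 20.0% to 62.7%. Alternatives were DESeq2 1.42.0, other scaling, no filter, no block, fewer wells in the model, other controls, summed solvent wells, thinned wells, each plate left out and the 4 highest IDs dropped.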

Additional observations from a re-analysis of the deposited data

Results flagged for a closer look

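The conc 1 wells of clp were outside every test, but the gene lists were chosen against the same 15 solvent wells. Some summed levels of the conc 1 wells lay above all 15 solvent wells with their exact 95% binomial interval. For the 34 genes that rose at conc 2, this held for replicate 1 with 19547 CPM and for replicate 3 with 7769, while the solvent wells reached 4809. For the 23 genes that rose at conc 3, it held for all 3 replicates with 17918, 5294 and 7029 CPM against a highest solvent value of 2918. For the 6 genes that rose at conc 3 against all 3 controls it held for replicate 1 with 5249 CPM against 961. These wells had totals of 22101, 5856 and 2703, and what the depth contributes to the sums was not tested at these totals.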

How the results depend on the processing

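The wells of a plate are paired by passage, and the block decided many calls: with no replicate block, conc 2 against solvent gave 10 genes in place of 41, conc 3 gave 3 in place of 28, and conc 2 against conc 3 gave 3 in place of 6. Leaving out the clp wells of 1 replicate gave 10 to 35 genes at conc 2, 9 to 19 at conc 3, 0 to 3 between both and 0 to 2 for the slope over concentrations. With clp conc 4 to 8 as control both concentrations gave 9, and with diq and per wells, a control added after the data were seen, 5 and 10. With no filter on low counts the numbers were 27 at conc 2, 37 at conc 3 (11 higher and 26 lower, against 23 and 5), 20 between both and 6 for the slope. Summing the solvent wells of each plate gave 27 at conc 2 and 26 at conc 3 with 3296 genes tested. Thinned wells gave 3 (1 higher and 2 lower) and 4 with 1720 genes tested. DESeq2 gave 46 at conc 2 and 48 at conc 3. The cause of the other changes was not tested. As a percent of the solvent wells of the plate, the median total was 119% at conc 2 and 57.0% at conc 3, in place of 113% and 50.2%. Other scaling (41 and 37), fewer wells in the model (33 and 26) and removal of the 4 most counted IDs (43 and 28) stayed within 1.5 times. No named ID changed sign in 11 to 13 alternatives each. ENSOMYG00000021322 and ENSOMYG00000021213 passed in all that tested them, while the 3 named falls failed in 7 or 8. Neither of these rises was tested in thinned wells, and ENSOMYG00000021322 was also not tested with summed solvent wells. With 1 to 39 counts of each named ID per treated well, small changes of such genes were not detectable at this depth, and slopes were not run in DESeq2.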
